A study of Mus musculus with 12 samples.

Results

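Bone morphogenetic protein (BMP) signalling was described through 10 genes, the ligand Bmp4, the receptors Bmpr1a and Bmpr2, the signal transducers Smad1 and Smad5, the inhibitors Smad6 and Bambi, and the target genes Id1, Id2 and Id3. These genes were chosen by symbol, and all 10 were found among the 24493 gene symbols of the expression table. RNA was sequenced from mouse pancreatic tumour cells of the C57BL/6 strain, named 6649c2, which had been implanted under the skin and sorted from the resulting tumours. There were 12 libraries, 3 for each of 4 genotype labels. In EgfrKO cells the epidermal growth factor receptor gene was the labelled knockout, in Klf5KO cells the gene of an epithelial zinc finger factor, in Smad4KO cells the gene of the Smad shared by BMP and TGF-beta signalling, and WT cells carried no labelled knockout. No treatment was labelled, and the guide, the sorting gate, and whether a knockout was a clone or a pool were not given in the labels, so the effect of a targeted gene and a difference between clones cannot be told apart. The series was designed to compare WT tumour cells with cells that had lost a chosen gene.

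BMP ligands bind a complex of type I and type II receptor kinases, and the type I receptor phosphorylates Smad1 and Smad5, which bind Smad4 and act on target genes in the nucleus. The Id genes are classical direct targets, and Id proteins bind E proteins, a family of helix-loop-helix transcription factors, and keep them off DNA. Smad6 and Bambi are induced by the pathway and restrain it, and loss of SMAD4 is common in human pancreatic cancer.

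Values were TPM, a share of each library's transcripts corrected for transcript length, so levels can be set side by side between genes of a library. As a share, a TPM also moves with the other transcripts of its library, which limits comparison between libraries. In WT cells Id2 was the highest of the 10 genes at 303 ± 12.1 TPM, followed by Id1 at 62.8 ± 1.31 TPM and Smad1 at 42.8 ± 2.25 TPM (SD, n = 3). Bmpr1a averaged 29.9 ± 0.13 TPM in WT cells and Smad5 averaged 22.5 ± 1.44 TPM there (SD, n = 3). Bmpr2, at 13.8 ± 0.53 TPM, and Bmp4, at 12.8 ± 0.83 TPM, were neighbours in this order whose WT libraries overlapped (SD, n = 3). Below them in WT cells came Smad6 at 6.85 ± 0.43 TPM, Id3 at 3.34 ± 0.89 TPM and Bambi at 0.644 ± 0.26 TPM (SD, n = 3). The plot of levels by library shows that the order and spread were not alike in the 4 genotypes.

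**Figure D1:**
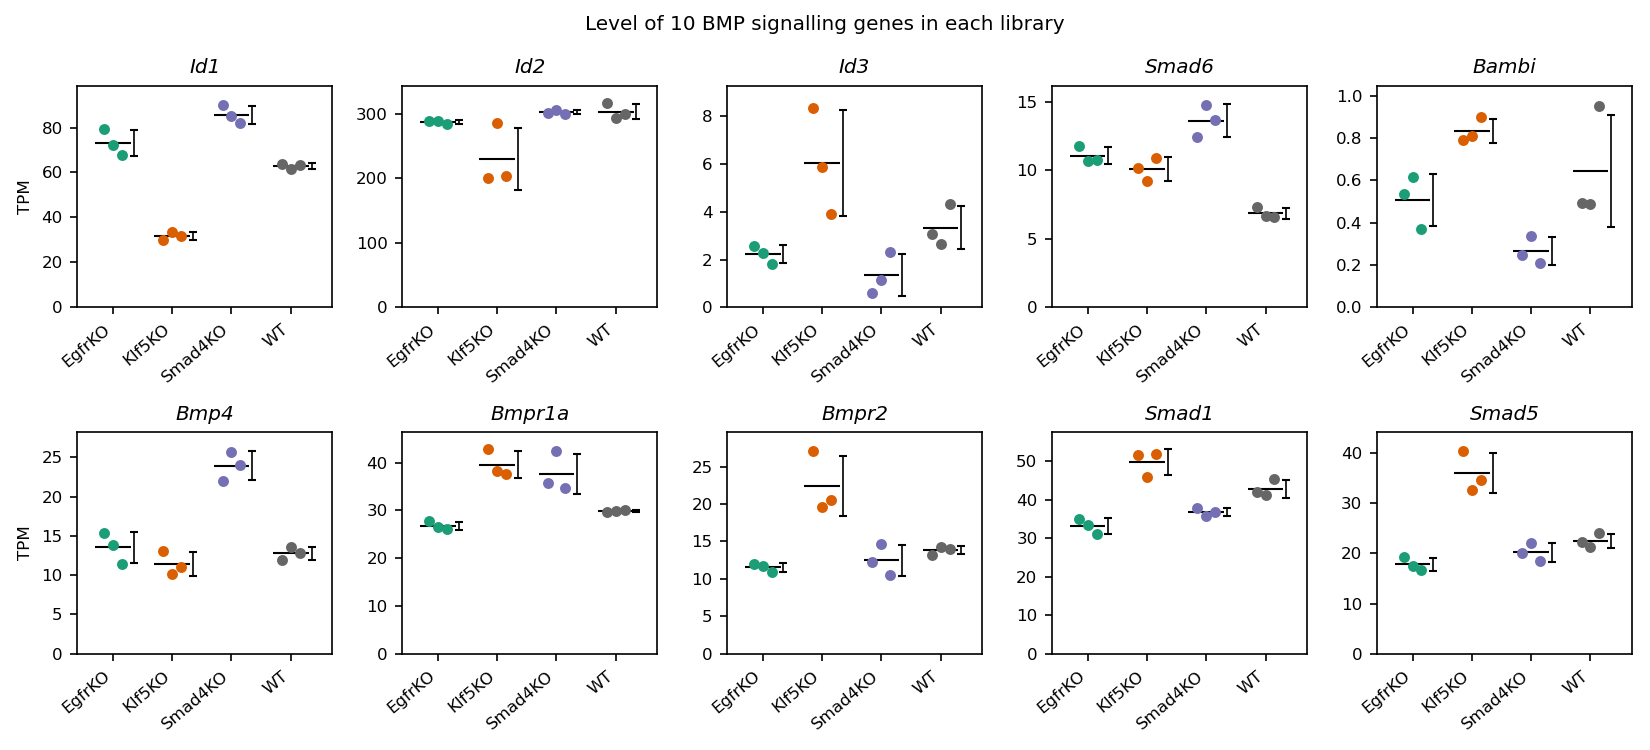
TPM (y axis, linear, from 0) of the 10 BMP signalling genes in the EgfrKO, Klf5KO, Smad4KO and WT libraries (x axis). Points are libraries, horizontal lines are means and bars to their right are SD (n = 3); Smad4KO libraries lie above all others for Id1, Smad6 and Bmp4, and Klf5KO libraries lie below all others for Id1 and above all others for Bmpr2, Smad1 and Smad5.

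Differences between genotypes were tested with limma on log2(TPM + 1) over 13662 genes, which included 9 of the 10 members. Bambi did not reach 1 TPM in any library and was left out by the filter on low values. A call is an adjusted p (Benjamini-Hochberg, over all genes of a comparison) under 0.05. On this scale the change of a gene with a low TPM is understated. The median over all tested genes was not 0 but 0.14 in EgfrKO, 0.31 in Klf5KO and 0.10 in Smad4KO cells against WT, so the value of a member after median-of-ratios scaling is also given where its call or direction moved. Scaling changed the split of all genes called higher and lower, which was 4277 and 1643 in EgfrKO, 7536 and 1518 in Klf5KO, and 4400 and 2381 in Smad4KO as deposited, to 2485 and 3023, 3397 and 3731, and 3382 and 3441. The labels do not tie replicates to separate mice, and the spread behind each p-value may therefore be technical. The 3 comparisons with WT share the same WT libraries.

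The targeted genes were read first. Egfr averaged 4.29 TPM in EgfrKO and 13.1 TPM in WT cells (log2 fold change -1.42, adjusted p = 5.9e-05), and Smad4 averaged 30.7 TPM in Smad4KO and 75.5 TPM in WT cells (-1.27, adjusted p = 6.9e-08). Klf5 averaged 93.8 TPM in Klf5KO and 112 TPM in WT cells (-0.25, adjusted p = 0.0411), so its TPM offers little check of that label. Klf5 was also called lower than WT in EgfrKO cells, at 84.9 TPM (-0.39, adjusted p = 0.0076), and was not called in Smad4KO cells, at 125 TPM (0.16, adjusted p = 0.196). Between EgfrKO and Klf5KO cells it was not called (-0.14, adjusted p = 0.238). After scaling Klf5 averaged 84.7 TPM in EgfrKO, 81.1 TPM in Klf5KO, 128 TPM in Smad4KO and 124 TPM in WT cells. Egfr was also called lower in Klf5KO cells, at 6.93 TPM (-0.85, adjusted p = 0.00094), and in Smad4KO cells, at 7.95 TPM (-0.67, adjusted p = 0.0060). Smad4 itself averaged 64.0 TPM in EgfrKO and 95.8 TPM in Klf5KO cells, changes of -0.23 (adjusted p = 0.0166) and 0.34 (adjusted p = 0.00095, and -0.01 after scaling) against WT.

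No knockout had all 3 Id genes, the pathway's targets, called in the same direction. In Smad4KO cells Id1 was higher and Id3 was lower, while Id2 lay among the WT values as deposited. After scaling Id2 averaged 309 TPM in Smad4KO and 336 TPM in WT cells and was still not called (-0.12, adjusted p = 0.442). In Klf5KO cells Id1 fell to 50.4% of its WT mean, and Id2 was lower as well. In EgfrKO cells Id1 was called higher by 0.21 on the log2 scale, and Id2 and Id3 were not called.

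Id1 (chromosome 2, 152736251 to 152737410, GRCm38.p6) encodes the Id family member most often used as a readout of BMP activity. Its levels were 79.3, 72.3 and 67.9 TPM in the EgfrKO libraries, 30.1, 33.3 and 31.6 TPM in the Klf5KO libraries, 89.9, 85.0 and 82.1 TPM in the Smad4KO libraries, and 63.9, 61.3 and 63.2 TPM in the WT libraries. All Smad4KO libraries were above all EgfrKO libraries, these were above all WT libraries, and Klf5KO libraries were lowest, with no overlap between any 2 genotypes. The log2 fold change against WT was -0.97 in Klf5KO (SE 0.06, adjusted p = 4.1e-07) and 0.44 in Smad4KO (SE 0.06, adjusted p = 0.00013), and both calls held after scaling, at -1.31 and 0.33. In EgfrKO cells it was 0.21 (SE 0.06, adjusted p = 0.0173), a call that ended after scaling (0.07, adjusted p = 0.410), without EgfrKO replicate 1 (0.16, adjusted p = 0.0750) and without WT replicate 2 (0.20, adjusted p = 0.0565).

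Id2 (chromosome 12, 25093799 to 25096092) was the most abundant member in every library. It stood at 289, 289 and 284 TPM in the EgfrKO libraries, 199.97, 285 and 204 TPM in the Klf5KO libraries, 301, 306 and 299 TPM in the Smad4KO libraries, and 317, 293 and 299.7 TPM in the WT libraries. The Klf5KO libraries were all below WT but split, with replicate 2 among the EgfrKO values and the other 2 far lower, and the Smad4KO values fell inside the WT range. Id2 fell by 0.42 on the log2 scale in Klf5KO cells (SE 0.10, adjusted p = 0.0040), with changes from -0.58 to -0.33 when each library was left out. Its fold changes of -0.08 in EgfrKO (adjusted p = 0.576) and -0.0041 in Smad4KO (adjusted p = 0.979) were not called.

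Id3 (chromosome 4, 136143822 to 136145392) was expressed at a small part of the level of the other Id genes. It was measured at 2.56, 2.28 and 1.82 TPM in the EgfrKO libraries, 8.36, 5.90 and 3.89 TPM in the Klf5KO libraries, 0.577, 1.14 and 2.32 TPM in the Smad4KO libraries, and 3.05, 2.63 and 4.34 TPM in the WT libraries. Smad4KO and EgfrKO libraries were all below WT and overlapped each other, whereas 2 of the Klf5KO libraries lay above WT and 1 lay inside its range. In Smad4KO cells Id3 fell by 0.94 (SE 0.28, adjusted p = 0.0163), and by 0.69 without Smad4KO replicate 1 (adjusted p = 0.0703) or 0.78 without WT replicate 3 (adjusted p = 0.0664), neither of which was called. The differences of 0.67 in Klf5KO (adjusted p = 0.0543) and -0.42 in EgfrKO (adjusted p = 0.253) missed the threshold. The Klf5KO difference passed it without Klf5KO replicate 3 (0.91, adjusted p = 0.0175) or without WT replicate 3 (0.83, adjusted p = 0.0389).

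The summed TPM of Id1, Id2 and Id3 was 353 to 371 in EgfrKO, 238 to 324 in Klf5KO, 384 to 392 in Smad4KO and 357 to 383 in WT libraries, levels that move with scaling. Ratios within a library, such as the share of a gene in that sum, do not depend on scaling. Id1 made up 19.2% to 21.4% of that sum in EgfrKO, 10.3% to 13.2% in Klf5KO, 21.4% to 23.0% in Smad4KO and 16.6% to 17.2% in WT libraries. The composition of the Id pool thus differed from WT in each knockout, towards Id1 in EgfrKO and Smad4KO cells and away from it in Klf5KO cells. Id3 made up 0.516% to 0.691% in EgfrKO, 1.63% to 3.51% in Klf5KO, 0.147% to 0.604% in Smad4KO and 0.737% to 1.18% in WT libraries.

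Sequence before the start sites is shown for Id3, which was lower in Smad4KO cells, and for Smad6 and Bmp4, which were higher there. Each line gives the 250 bases before the start, 5' to 3' on the gene's strand, from RefSeq (GRCm38.p6). These lie at chr4:136143572-136143821 on the plus strand for Id3, chr9:64022060-64022309 on the minus strand for Smad6 and chr14:46390670-46390919 on the minus strand for Bmp4. The start used for a window need not be the outer end of the gene range printed in this report. The Smad6 window reaches into its gene range, which ends at 64022085. The Bmpr1a window and the Smad5 window that begins at 56703418 lie wholly inside theirs. Capitals mark matches on either strand to GGCGCC or GGAGCC, GC-rich motifs that BMP-activated Smads can bind, or to CAGAC, a Smad-binding motif.
Id3: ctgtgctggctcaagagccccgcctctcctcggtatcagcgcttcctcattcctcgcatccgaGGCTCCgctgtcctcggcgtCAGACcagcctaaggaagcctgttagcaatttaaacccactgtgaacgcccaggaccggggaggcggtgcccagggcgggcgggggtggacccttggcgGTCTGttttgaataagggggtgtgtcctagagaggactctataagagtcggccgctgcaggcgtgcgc
Smad6: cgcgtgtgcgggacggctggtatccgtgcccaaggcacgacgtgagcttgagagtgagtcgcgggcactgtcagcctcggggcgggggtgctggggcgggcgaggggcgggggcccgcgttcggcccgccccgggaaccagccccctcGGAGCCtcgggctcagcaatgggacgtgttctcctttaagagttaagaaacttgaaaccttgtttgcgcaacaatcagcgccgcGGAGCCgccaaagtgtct
Bmp4: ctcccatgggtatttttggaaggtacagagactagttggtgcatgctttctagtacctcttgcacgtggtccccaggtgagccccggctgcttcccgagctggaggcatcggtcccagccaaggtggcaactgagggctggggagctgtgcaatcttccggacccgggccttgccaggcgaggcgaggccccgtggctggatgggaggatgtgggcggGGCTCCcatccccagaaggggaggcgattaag
Id3 had 1 GGAGCC and 2 CAGAC matches, Smad6 had 2 GGAGCC matches and Bmp4 had 1 GGAGCC match. Of 32817 such windows in the mouse table, 9.59% held GGCGCC, 26.0% GGAGCC and 42.2% CAGAC, so a match is common and only describes the letters. Among the 8 members whose windows were read, 4 held GGCGCC, 5 held GGAGCC and 2 held CAGAC. Id1 and Bambi were not among these 8. The motif CCNCNCCC, of the kind KLF factors bind, was found in 7 of those 8 members, or 9 of their 10 windows, and in 45.9% of all windows. The member windows were 60.0% to 78.8% G and C, against a median of 52.4% over all windows, so the shares of these GC-rich motifs are not set against windows of a like base composition. No binding was measured in this series.

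Of the inhibitors, Smad6 was called higher than WT in all 3 knockouts as deposited, and in EgfrKO and Smad4KO cells after scaling. Smad6 (chromosome 9, 63953076 to 64022085), an inhibitory Smad that blocks Smad1 and Smad5, stood at 11.8, 10.7 and 10.8 TPM in the EgfrKO libraries, 10.1, 9.22 and 10.9 TPM in the Klf5KO libraries, 12.4, 14.8 and 13.7 TPM in the Smad4KO libraries, and 7.35, 6.63 and 6.57 TPM in the WT libraries. Every knockout library was above every WT library, the Smad4KO libraries were highest, and EgfrKO and Klf5KO libraries overlapped. The log2 fold change was 0.62 in EgfrKO (SE 0.09, adjusted p = 0.00023) and 0.90 in Smad4KO (SE 0.09, adjusted p = 7.5e-06). In Klf5KO cells it was 0.50 (SE 0.09, adjusted p = 0.00043), but 0.18 after scaling (adjusted p = 0.0852) and 0.14 after quantile normalization (adjusted p = 0.187), where it was not called.

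Bambi (chromosome 18, 3507011 to 3516404), a receptor decoy that lacks the kinase domain, was near the bottom of the measurable range. It was at 0.536, 0.614 and 0.372 TPM in the EgfrKO libraries, 0.792, 0.811 and 0.899 TPM in the Klf5KO libraries, 0.248, 0.337 and 0.210 TPM in the Smad4KO libraries, and 0.494, 0.489 and 0.949 TPM in the WT libraries. The Smad4KO libraries were the lowest of the 12, and those of EgfrKO and Klf5KO overlapped WT. In a fit without the filter, over 19932 genes, its fold change was -0.37 in Smad4KO (SE 0.11, adjusted p = 0.0213), -0.12 in EgfrKO (adjusted p = 0.469) and 0.17 in Klf5KO cells (adjusted p = 0.231). Library depth is unknown for TPM, so the counting error behind such low values cannot be given.

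Among the ligand and receptors, Bmp4 rose in Smad4KO cells, Bmpr1a rose in Smad4KO cells, and Bmpr2 rose in Klf5KO cells; Bmpr1a was also called in Klf5KO cells, but not after scaling. Bmp4 (chromosome 14, 46383525 to 46390669), a secreted ligand, was at 15.3, 13.8 and 11.5 TPM in the EgfrKO libraries, 13.05, 10.2 and 11.05 TPM in the Klf5KO libraries, 22.0, 25.7 and 24.0 TPM in the Smad4KO libraries, and 11.9, 13.6 and 12.8 TPM in the WT libraries. The Smad4KO libraries were all far above the other 9, which overlapped one another. The fold change was 0.86 in Smad4KO cells (SE 0.11, adjusted p = 7.4e-05), 1.87 times the WT level on the TPM scale. It was 0.07 in EgfrKO (adjusted p = 0.639, and -0.07 after scaling) and -0.15 in Klf5KO cells (adjusted p = 0.252). Scaling brought the Klf5KO value to -0.48, past the threshold (adjusted p = 0.0011).

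Bmpr1a (chromosome 14, 34411061 to 34503336), a type I receptor kinase, was at 27.7, 26.5 and 26.0 TPM in the EgfrKO libraries, 42.8, 38.3 and 37.7 TPM in the Klf5KO libraries, 35.7, 42.4 and 34.7 TPM in the Smad4KO libraries, and 29.8, 29.8 and 30.02 TPM in the WT libraries. Klf5KO and Smad4KO libraries overlapped each other and lay above WT, and EgfrKO libraries lay just below WT. The fold change in Smad4KO cells was 0.32 (SE 0.08, adjusted p = 0.0050), and 0.21 after scaling (adjusted p = 0.0116). In Klf5KO cells it was 0.39 (SE 0.08, adjusted p = 0.00079) as deposited and 0.05 after scaling (adjusted p = 0.516). In EgfrKO cells it was -0.15 (adjusted p = 0.122) as deposited and -0.30 after scaling (adjusted p = 0.0018).

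Bmpr2 (chromosome 1, 59764279 to 59878081), a type II receptor kinase, was at 11.98, 11.7 and 10.9 TPM in the EgfrKO libraries, 27.0, 19.6 and 20.6 TPM in the Klf5KO libraries, 12.3, 14.6 and 10.5 TPM in the Smad4KO libraries, and 13.2, 14.2 and 14.0 TPM in the WT libraries. The Klf5KO libraries were highest, the EgfrKO libraries lay below WT and the Smad4KO libraries overlapped both. Bmpr2 rose by 0.65 in Klf5KO cells (SE 0.13, adjusted p = 0.00079), and by 0.31 after scaling (adjusted p = 0.0244). The differences of -0.24 in EgfrKO (adjusted p = 0.143) and -0.15 in Smad4KO cells (adjusted p = 0.364) were not called as deposited. The EgfrKO one was called after scaling (-0.38, adjusted p = 0.0122), and the Smad4KO one was called after quantile normalization (-0.31, adjusted p = 0.0288) but not after scaling (-0.25, adjusted p = 0.0626). In a fit of EgfrKO and WT libraries alone, limma called both receptors lower in EgfrKO cells, Bmpr1a with an adjusted p of 0.0486 and Bmpr2 with an adjusted p of 0.0304. The ratio of Bmpr2 to Bmpr1a within a library was 0.419 to 0.441 in EgfrKO, 0.512 to 0.631 in Klf5KO, 0.304 to 0.345 in Smad4KO and 0.443 to 0.476 in WT libraries. No 2 genotypes overlapped in it, with Klf5KO highest and Smad4KO lowest.

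The receptor-activated Smads, Smad1 and Smad5, were both lower in EgfrKO cells, and Smad5 was higher in Klf5KO cells, where the direction of Smad1 turned with the scaling. Smad1 (chromosome 8, 79338395 to 79399428) was at 34.9, 33.5 and 31.0 TPM in the EgfrKO libraries, 51.5, 45.8 and 51.8 TPM in the Klf5KO libraries, 37.8, 35.8 and 36.9 TPM in the Smad4KO libraries, and 41.9, 41.1 and 45.3 TPM in the WT libraries. EgfrKO libraries were lowest, then Smad4KO, then WT, then Klf5KO, without overlap. Smad1 fell by 0.36 in EgfrKO cells (SE 0.07, adjusted p = 0.0012) and by 0.21 in Smad4KO cells (SE 0.07, adjusted p = 0.0195). The Smad4KO call ended without Smad4KO replicate 2 (-0.19, adjusted p = 0.0603) or WT replicate 3 (-0.17, adjusted p = 0.0809). In Klf5KO cells the value of 0.21 (adjusted p = 0.0144) turned to -0.14 after scaling (adjusted p = 0.0792) and -0.08 after quantile normalization (adjusted p = 0.260), and missed the threshold without Klf5KO replicate 3 (0.18, adjusted p = 0.0566) or WT replicate 2 (0.18, adjusted p = 0.0557).

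Smad5 (chromosome 13, 56703010 to 56742378), a close relative of Smad1, was at 19.2, 17.4 and 16.8 TPM in the EgfrKO libraries, 40.4, 32.7 and 34.7 TPM in the Klf5KO libraries, 20.1, 22.2 and 18.5 TPM in the Smad4KO libraries, and 22.2, 21.3 and 24.1 TPM in the WT libraries. Klf5KO libraries stood far above the other 9, EgfrKO libraries were below WT, and Smad4KO libraries overlapped both EgfrKO and WT. Smad5 rose by 0.65 in Klf5KO cells (SE 0.09, adjusted p = 9.2e-05) and by 0.30 after scaling (adjusted p = 0.0048). In EgfrKO cells it fell by 0.32 (SE 0.09, adjusted p = 0.0154), which was not called without EgfrKO replicate 3 (-0.28, adjusted p = 0.0512) or WT replicate 3 (-0.28, adjusted p = 0.0629). The Smad4KO value of -0.15 (adjusted p = 0.204) was not called as deposited and was after scaling (-0.26, adjusted p = 0.0125). The ratio of Smad5 to Smad1 within a library was 0.520 to 0.550 in EgfrKO, 0.670 to 0.785 in Klf5KO, 0.501 to 0.619 in Smad4KO and 0.518 to 0.532 in WT libraries, so the 2 genes stood in an unequal proportion in Klf5KO cells compared with the other genotypes. Reads shared between these related genes would be divided by the quantification, and how was not given in the sources used here. Exons of Bmp4 overlap the antisense model Gm15217, which averaged 0.15 TPM, and exons of Bmpr1a and Smad5 overlap the models Gm17110 and Gm27301, not analysed here.

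Counted by genotype, Id1 and Smad6 were called higher and Smad1 and Smad5 lower in EgfrKO cells, 2 and 2 of the 9 tested members, against 31.3% of all genes called higher and 12% called lower. In Klf5KO cells 5 members were called higher (Smad6, Bmpr1a, Bmpr2, Smad1 and Smad5) and 2 lower (Id1 and Id2), against 55.2% and 11.1% of all genes. In Smad4KO cells 4 were called higher (Id1, Smad6, Bmp4 and Bmpr1a) and 2 lower (Id3 and Smad1), against 32.2% and 17.4%. Called in either direction were 43.3%, 66.3% and 49.6% of all genes in EgfrKO, Klf5KO and Smad4KO cells, so calls of this kind were common. The 3 libraries of a knockout and the 3 of WT did not overlap in 56% of all tested genes for EgfrKO, 69% for Klf5KO and 59.1% for Smad4KO, which is the background to the members described above as not overlapping. After scaling the numbers of members higher and lower were 1 and 4 in EgfrKO, 2 and 3 in Klf5KO, and 4 and 3 in Smad4KO cells. The median fold change of the 9 members was -0.15 in EgfrKO, 0.39 in Klf5KO and -0.0041 in Smad4KO cells, beside 0.14, 0.31 and 0.10 for all genes.

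**Figure D2:**
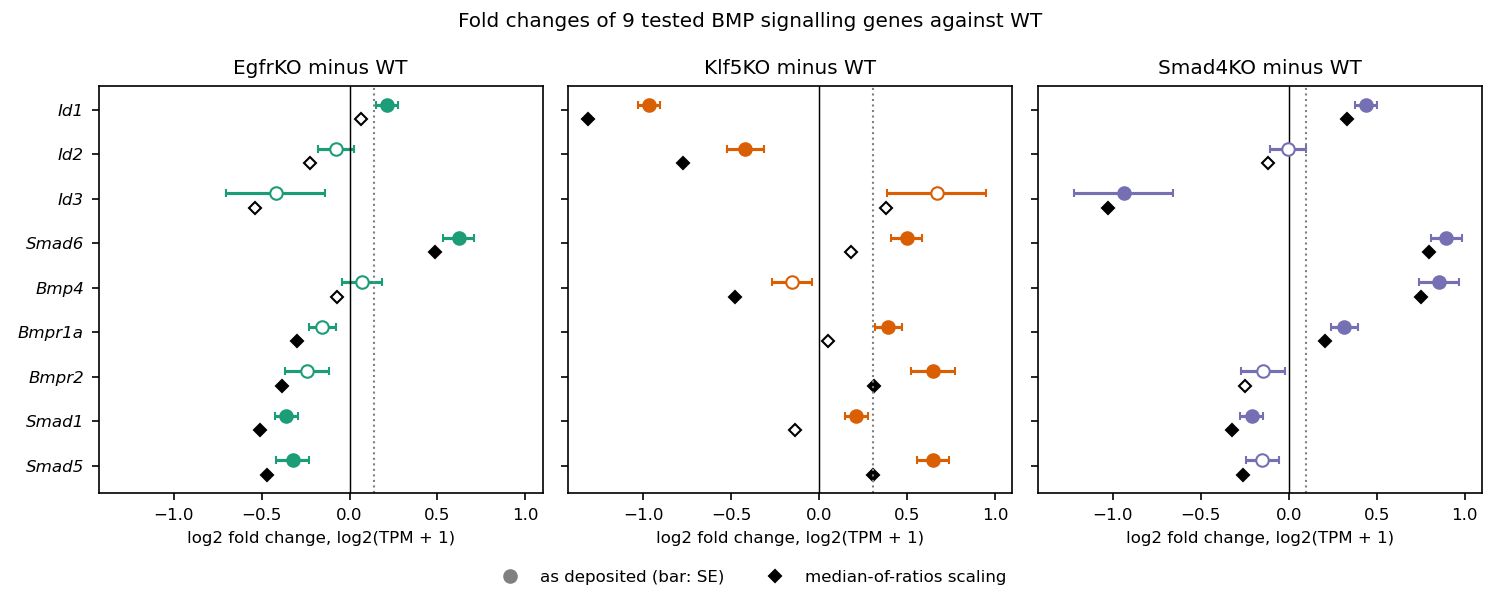
Log2 fold change against WT on the log2(TPM + 1) scale (x axis) of the 9 tested members (y axis), with 1 panel each for EgfrKO, Klf5KO and Smad4KO. Circles with SE bars are values as deposited, diamonds are values after median-of-ratios scaling, filled symbols passed an adjusted p of 0.05, and the dotted line is the median of all genes; scaling moves the Klf5KO values of Bmpr1a and Smad6 towards 0 and leaves Id1 lower.

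The knockouts were also compared with one another, which asks whether levels differed between the labelled knockouts and not whether the targeted genes act differently. Bmp4 and Bmpr1a separated Smad4KO from EgfrKO cells, and Id1 separated all 3 knockouts. Between Smad4KO and EgfrKO cells, Id1 (0.23, SE 0.06, adjusted p = 0.0167), Smad6 (0.28, SE 0.09, adjusted p = 0.0326), Bmp4 (0.78, SE 0.11, adjusted p = 0.00031) and Bmpr1a (0.47, SE 0.08, adjusted p = 0.00070) were higher in Smad4KO. These were 4 of 9 members, against 14.5% of all genes called higher, 18.7% called lower and 33.2% called in either direction. With limma 0 members were lower in Smad4KO than in EgfrKO cells, also 0 at an unadjusted p under 0.05. The Id1 call ended without EgfrKO replicate 2 (0.22, adjusted p = 0.0543), EgfrKO replicate 3 (0.17, adjusted p = 0.0639) or Smad4KO replicate 1 (0.19, adjusted p = 0.0694). The Smad6 call ended without EgfrKO replicate 2 (0.25, adjusted p = 0.106), EgfrKO replicate 3 (0.26, adjusted p = 0.0831), Smad4KO replicate 2 (0.22, adjusted p = 0.117) or Smad4KO replicate 3 (0.27, adjusted p = 0.0759), and in a fit of these 2 genotypes alone (adjusted p = 0.0502). Smad1, at 0.15 (adjusted p = 0.105), and Smad5, at 0.17 (adjusted p = 0.176), were called higher in Smad4KO cells after scaling (0.19, adjusted p = 0.0335, and 0.21, adjusted p = 0.0442) but not after quantile normalization. The number of members called was 2 without EgfrKO replicate 2 and 2 without EgfrKO replicate 3. The Id3 difference of -0.52 (adjusted p = 0.183) was called without Smad4KO replicate 3 (-0.80, adjusted p = 0.0442).

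Smad4KO and Klf5KO cells differed in 8 of 9 members, with Id1, Id2, Smad6 and Bmp4 higher in Smad4KO cells and Id3, Bmpr2, Smad1 and Smad5 lower, against 18.3% of all genes called higher, 45.5% called lower and 63.8% called in either direction. Id1 differed by 1.41 (SE 0.06, adjusted p = 8.4e-09), Bmp4 by 1.01 (SE 0.11, adjusted p = 1.2e-05) and Id3 by -1.61 (SE 0.28, adjusted p = 0.00037). The Bmpr1a difference was -0.08 (adjusted p = 0.401) as deposited and 0.16 after scaling (adjusted p = 0.0335), and -0.16 without Smad4KO replicate 2 (adjusted p = 0.0489). EgfrKO and Klf5KO cells differed in 7 of 9 members, with Id1 and Id2 higher in EgfrKO cells and Id3, Bmpr1a, Bmpr2, Smad1 and Smad5 lower, against 14.7%, 40.5% and 55.2% of all genes called higher, lower and in either direction. Id1 differed by 1.18 (SE 0.06, adjusted p = 1.2e-07), Id3 by -1.09 (SE 0.28, adjusted p = 0.0064) and Smad5 by -0.97 (SE 0.09, adjusted p = 7.5e-06). The Id2 difference of 0.34 (adjusted p = 0.0157) was not called without Klf5KO replicate 1 (0.25, adjusted p = 0.0692) or Klf5KO replicate 3 (0.27, adjusted p = 0.0669), nor in a fit of these 2 genotypes alone (adjusted p = 0.0559). The Bmp4 difference of 0.23 (adjusted p = 0.113) was called without EgfrKO replicate 3 (0.33, adjusted p = 0.0278) or Klf5KO replicate 1 (0.32, adjusted p = 0.0408), and after scaling (0.41, adjusted p = 0.0029). The Smad6 difference of 0.12 (adjusted p = 0.269) was called after scaling as well (0.31, adjusted p = 0.0092). After scaling, the members called higher and lower were 6 and 0 between Smad4KO and EgfrKO, 5 and 4 between Smad4KO and Klf5KO, and 4 and 5 between EgfrKO and Klf5KO cells. Libraries of the 2 knockouts did not overlap in 47.9% of all tested genes between Smad4KO and EgfrKO, 67.2% between Smad4KO and Klf5KO and 61.2% between EgfrKO and Klf5KO. The same scaling moved the genes called higher and lower, from 1977 and 2554 between Smad4KO and EgfrKO to 2594 and 2337. Between Smad4KO and Klf5KO the counts moved from 2506 and 6210 to 4211 and 4056, and between EgfrKO and Klf5KO from 2007 and 5528 to 3603 and 3492.

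**Figure D3:**
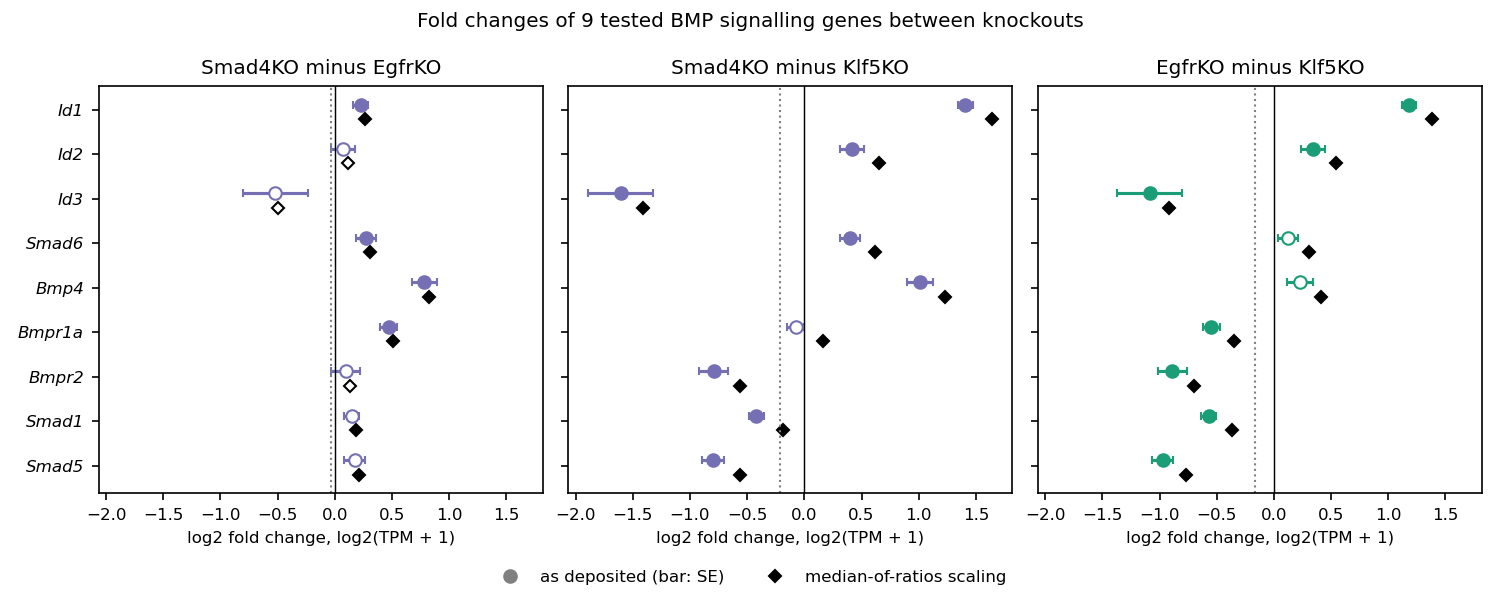
Log2 fold change between knockouts on the log2(TPM + 1) scale (x axis) of the 9 tested members (y axis), in 1 panel for each pair, first minus second. Symbols are as deposited (circles, with SE) and after median-of-ratios scaling (diamonds), filled where the adjusted p was under 0.05, with the median of all genes dotted; Id1 is lower in Klf5KO than in both other knockouts, and Id3 is higher.

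The rest of the pathway was read from lists of 63 further ligands, receptors, antagonists, regulators, targets and E proteins, all of them in the table and 39 of them tested. Called higher and lower were 6 and 16 in EgfrKO, 20 and 7 in Klf5KO, and 4 and 21 in Smad4KO cells against WT. Over all tested genes the shares called higher and lower were 31.3% and 12% in EgfrKO, 55.2% and 11.1% in Klf5KO, and 32.2% and 17.4% in Smad4KO cells, so 20 of 39 higher in Klf5KO cells is near the share of all genes. The median fold changes of the 39 were -0.11 in EgfrKO, 0.28 in Klf5KO and -0.32 in Smad4KO cells. After scaling the counts were 5 and 21 in EgfrKO, 11 and 14 in Klf5KO, and 4 and 24 in Smad4KO cells, so the direction of the Klf5KO balance turned with the scaling.

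Of 3 tested ligands beside Bmp4, Bmp2 was lower in every knockout. It was at 0.684 to 0.956 TPM in EgfrKO, 3.10 to 3.14 TPM in Klf5KO, 1.58 to 1.78 TPM in Smad4KO and 7.29 to 9.79 TPM in WT libraries, without overlap. The fold change was -2.36 in EgfrKO (SE 0.11, adjusted p = 1.9e-07), -1.19 in Klf5KO (SE 0.11, adjusted p = 5.5e-06) and -1.82 in Smad4KO cells (SE 0.11, adjusted p = 2.2e-07). Bmp2 and Bmp4, related ligands for the same receptors, thus had opposite signs in Smad4KO cells. The other two tested ligands, Gdf7 at 2.51 ± 0.20 TPM and Bmp5 at 0.578 ± 0.24 TPM in WT cells (SD, n = 3), were not called in any knockout.

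Of 7 tested receptors and co-receptors, 1 was called higher and 2 lower in EgfrKO, 3 higher in Klf5KO and 3 lower in Smad4KO cells, but 1 higher and 2 lower in Klf5KO after scaling. Acvr1, another type I receptor, averaged 34.9 ± 1.41 TPM in EgfrKO, 46.4 ± 2.51 TPM in Klf5KO, 30.5 ± 2.67 TPM in Smad4KO and 48.5 ± 2.04 TPM in WT cells (SD, n = 3). It fell by 0.46 in EgfrKO (adjusted p = 0.00030) and by 0.65 in Smad4KO cells (adjusted p = 1.2e-05), whereas Bmpr1a was higher in Smad4KO cells. After scaling Acvr1 averaged 40.2 ± 3.06 TPM in Klf5KO and 53.7 ± 2.99 TPM in WT cells (SD, n = 3), further apart than as deposited. The co-receptor Rgmb fell by 0.60 in EgfrKO (adjusted p = 0.00074) and by 0.67 in Smad4KO cells (adjusted p = 0.00020), and Neo1, which binds repulsive guidance molecules, fell by 0.32 in Smad4KO cells (adjusted p = 0.0195). The type II receptor Acvr2a had a value of 0.45 in Klf5KO (adjusted p = 0.0024) and 0.13 after scaling (adjusted p = 0.183).

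Of 11 tested secreted antagonists and binders, 2 were higher and 6 lower in EgfrKO, 6 higher and 3 lower in Klf5KO, and 3 higher and 7 lower in Smad4KO cells, with 5 higher and 5 lower in Klf5KO after scaling. Grem1, which binds BMP2 and BMP4 proteins and blocks them, was at 4.68 to 8.01 TPM in EgfrKO, 16.0 to 17.3 TPM in Klf5KO, 3.77 to 5.79 TPM in Smad4KO and 33.1 to 46.1 TPM in WT libraries. All knockout libraries were below WT, and Grem1 fell by 2.39 in EgfrKO (SE 0.18, adjusted p = 2.3e-06), 1.14 in Klf5KO (SE 0.18, adjusted p = 0.00018) and 2.73 in Smad4KO cells (SE 0.18, adjusted p = 3.1e-07). Nbl1, another extracellular BMP antagonist, averaged 149 ± 3.3 TPM in EgfrKO, 139 ± 5.72 TPM in Klf5KO, 139 ± 12.2 TPM in Smad4KO and 209.7 ± 14.2 TPM in WT cells (SD, n = 3) and was lower in all 3, by -0.48, -0.59 and -0.59. Twsg1, which can promote or hinder BMP binding, was higher in all 3, by 0.33 in EgfrKO, 1.03 in Klf5KO and 0.40 in Smad4KO cells (adjusted p = 0.0031, 5.3e-07 and 0.00061), and stayed called after scaling. Crim1, a transmembrane BMP-binding protein, was higher in Klf5KO (0.60, adjusted p = 1.6e-05) and Smad4KO cells (0.35, adjusted p = 0.0012). Fstl1, a secreted follistatin-like protein that fibroblasts also express, rose by 2.23 in Klf5KO (adjusted p = 4.7e-06) and fell by 0.82 in EgfrKO (adjusted p = 0.0080) and 1.08 in Smad4KO cells (adjusted p = 0.0012).

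Of 10 tested Smads and Smad-level regulators, 2 were higher and 5 lower in EgfrKO, 7 higher and 1 lower in Klf5KO, and 1 higher and 7 lower in Smad4KO cells, where Smad4 itself was among the 7. After scaling the counts were 2 higher and 7 lower in EgfrKO, 3 higher and 3 lower in Klf5KO, and 1 higher and 7 lower in Smad4KO cells, so the excess of higher calls in Klf5KO was not kept. Smad7, an inhibitory Smad of both BMP and TGF-beta signalling, averaged 48.0 ± 3.12 TPM in EgfrKO, 46.5 ± 0.95 TPM in Klf5KO, 35.7 ± 1.75 TPM in Smad4KO and 61.2 ± 4.86 TPM in WT cells (SD, n = 3). It fell by 0.35 in EgfrKO (adjusted p = 0.0019), 0.39 in Klf5KO (adjusted p = 0.00039) and 0.76 in Smad4KO cells (adjusted p = 3.3e-06). The 2 inhibitory Smads thus had opposite signs in the 3 knockouts, Smad6 higher and Smad7 lower, with the Klf5KO call of Smad6 lost on scaling. Ski, a co-repressor that binds Smad proteins, fell by 0.30 in EgfrKO (adjusted p = 0.0020) and 0.60 in Smad4KO cells (adjusted p = 8.2e-06), and had a value of 0.26 in Klf5KO cells (adjusted p = 0.0023) that turned to -0.09 after scaling. The phosphatase gene Ppm1a had fold changes of -0.09, 0.05 and 0.06 in EgfrKO, Klf5KO and Smad4KO cells and was not called as deposited. After scaling Ppm1a was called lower in EgfrKO (-0.24, adjusted p = 0.0035) and, with its sign turned, in Klf5KO cells (-0.30, adjusted p = 0.00052), also after quantile normalization (adjusted p = 0.0195 and 0.0060), and it was at -0.05 in Smad4KO cells (adjusted p = 0.417).

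Of 7 tested further targets, 3 were called lower in EgfrKO, 2 higher and 3 lower in Klf5KO, and 5 lower in Smad4KO cells. Smad7 is on this list as well as among the Smad-level regulators, so its lower call in each knockout is counted in both places. After scaling limma called 4 lower in EgfrKO, 4 lower in Klf5KO and 6 lower in Smad4KO cells, and neither higher call in Klf5KO was kept. Runx2, a transcription factor of bone formation, fell by 0.79 in Smad4KO cells (adjusted p = 5.4e-05), to 13.1 ± 1.79 TPM in Smad4KO against 23.3 ± 2.08 TPM in WT cells (SD, n = 3). Hes1, also a Notch target, fell by 0.35 in Klf5KO cells (adjusted p = 0.00026). Lmo2 was not called, with 5.57 ± 0.52 TPM in EgfrKO, 5.23 ± 0.28 TPM in Klf5KO, 4.33 ± 2.10 TPM in Smad4KO and 4.10 ± 1.40 TPM in WT cells (SD, n = 3). Id1 and Smad6 were therefore higher in Smad4KO cells while Id3, Smad7 and Runx2 were lower there.

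The E proteins, which Id proteins bind, were all called in Klf5KO cells. Tcf3 (0.57, adjusted p = 2.6e-05), Tcf4 (0.48, adjusted p = 6.5e-05) and Tcf12 (0.37, adjusted p = 0.0015) were higher there, but after scaling Tcf12 was at 0.02 (adjusted p = 0.781) and was not called. In EgfrKO cells Tcf3 was higher by 0.23 (adjusted p = 0.0177, and 0.08 and not called after scaling), Tcf4 was at -0.27 and called lower (adjusted p = 0.0067), and Tcf12 was at -0.15 (adjusted p = 0.138) but called lower after scaling (-0.30, adjusted p = 0.0020) and quantile normalization (-0.26, adjusted p = 0.0071). In Smad4KO cells limma called 0 of the 3, with 0 at an unadjusted p under 0.05, and 2, Tcf3 and Tcf12, were called lower after scaling (both -0.21, adjusted p = 0.0153 and 0.0117). Tcf3 was the most abundant of them at 98.2 ± 4.67 TPM in EgfrKO, 125 ± 11.5 TPM in Klf5KO, 78.0 ± 4.66 TPM in Smad4KO and 83.5 ± 1.5 TPM in WT cells (SD, n = 3).

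**Figure D4:**
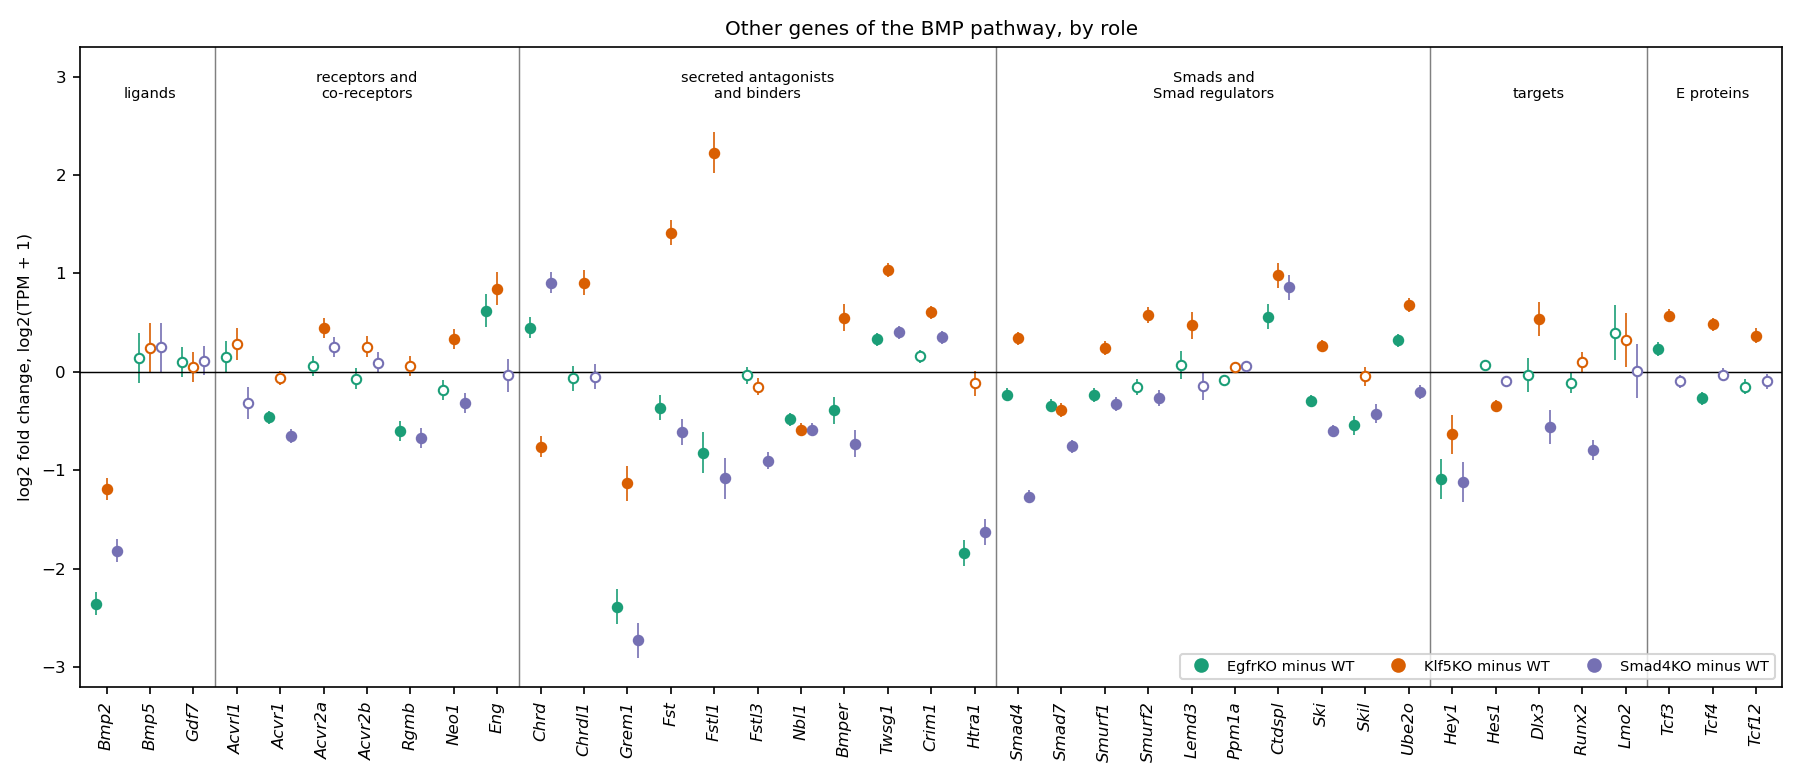
Log2 fold change against WT on the log2(TPM + 1) scale (y axis) of the 39 tested further genes of the BMP pathway (x axis), grouped by role, for EgfrKO, Klf5KO and Smad4KO. Bars are SE, filled points passed an adjusted p of 0.05, and a gene on 2 lists is drawn once; Bmp2, Grem1, Nbl1 and Smad7 are lower in all 3 knockouts and Twsg1 is higher in all 3.

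The genes whose pattern over the 12 libraries lay nearest to each Id gene were found by the mean absolute difference of centred log2(TPM + 1) values, with genes of mean TPM of at least 5 as candidates. Nearest to Id1, whose own mean deviation was 0.44, were Srsf5 (0.10), Mgst2 (0.11) and Ndufa8 (0.11). Nearest to Id2, whose own mean deviation was 0.15, were Rpl21 (0.07), Rps3a1 (0.07) and Phf1 (0.07). Nearest to Id3, whose own mean deviation was 0.52, were Adra1d (0.20), Col15a1 (0.22) and Frmd4a (0.24). For scale, the median candidate differed by 0.56 from Id1, 0.30 from Id2 and 0.51 from Id3.

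Markers of other cells moved with the genotypes, and in bulk samples fewer cells of a type and less RNA per cell cannot be told apart. Epithelial markers summed to 7341 to 7844 TPM in EgfrKO and 4580 to 5112 TPM in Klf5KO libraries. The same 8 genes summed to 7847 to 8814 TPM in Smad4KO and 5426 to 5884 TPM in WT libraries. Of 7 tested, 4, 1 and 7 were higher in EgfrKO, Klf5KO and Smad4KO cells, and 2 and 5 were lower in EgfrKO and Klf5KO cells. Krt8, the most abundant of the 8, averaged 2820 TPM in EgfrKO, 1909 TPM in Klf5KO, 3206 TPM in Smad4KO and 2120 TPM in WT cells. Not all of the 8 were high. Epcam averaged 1.30 TPM in EgfrKO, 0.539 TPM in Klf5KO, 39.5 TPM in Smad4KO and 13.5 TPM in WT cells. Under 1 TPM in all 3 libraries were 2 of the 8 in EgfrKO, 3 in Klf5KO, 1 in Smad4KO and 1 in WT cells. The sum of 10 endothelial markers was 22.7 to 25.8 TPM in EgfrKO, 24.7 to 28.8 TPM in Klf5KO, 20.7 to 21.6 TPM in Smad4KO and 11.4 to 12.2 TPM in WT libraries, with 4, 3 and 1 of 5 tested called higher. Its defining gene Cdh5 averaged 3.59 TPM in EgfrKO, 6.61 TPM in Klf5KO, 0.760 TPM in Smad4KO and 1.03 TPM in WT cells, and Egfl7 averaged 10.9, 5.96, 15.03 and 5.91 TPM in that order of genotypes. The sum of 12 fibroblast markers was 154 to 164 TPM in EgfrKO, 361 to 747 TPM in Klf5KO, 64.0 to 94.2 TPM in Smad4KO and 63.8 to 157 TPM in WT libraries, with 4 and 11 of 11 tested higher in EgfrKO and Klf5KO cells (3 and 8 after scaling) and 1 and 3 lower in EgfrKO and Smad4KO cells. The sum of 7 leukocyte markers was 177 to 184 TPM in EgfrKO, 182 to 274 TPM in Klf5KO, 56.6 to 106 TPM in Smad4KO and 110 to 151 TPM in WT libraries, with 3 and 6 of 7 higher in EgfrKO and Klf5KO cells, but 1 and 1 after scaling, and 1 and 2 lower in EgfrKO and Smad4KO cells. Macrophage markers summed to 1234 to 1331 TPM in EgfrKO, 1043 to 1668 TPM in Klf5KO, 182 to 804 TPM in Smad4KO and 733 to 1459 TPM in WT libraries, of which 2 of 8 were called, lower in Smad4KO cells. T and NK cell markers summed to 9.26 to 11.3 TPM in EgfrKO, 10.2 to 16.6 TPM in Klf5KO, 7.95 to 10.04 TPM in Smad4KO and 2.31 to 5.13 TPM in WT libraries, with 4, 4 and 3 of 6 tested higher, and of all marker genes Ncr1 was listed at 0 in every library of a genotype, Smad4KO.

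Immediate-early genes, which rise when tissue is dissociated and include Junb and Ier3, summed to 2392 to 2572 TPM in EgfrKO, 1552 to 2430 TPM in Klf5KO, 1974 to 2125 TPM in Smad4KO and 3790 to 4826 TPM in WT libraries, with 12, 14 and 12 of 14 lower than in WT. With the mean of the immediate-early list as a covariate, limma called 1 member in EgfrKO, 0 in Klf5KO and 2 in Smad4KO cells, and with the endothelial list 0, 0 and 4. With the fibroblast list it called 5, 1 and 6 members, and with the leukocyte list 2, 6 and 7. These counts include gained calls. With the immediate-early list Id2 was called higher in Smad4KO cells (0.60, adjusted p = 0.0402), where it was not called without a covariate. Not every value that lost its call was smaller. With the immediate-early list Id1 and Smad5 were at 0.35 and -0.52 in EgfrKO cells (adjusted p = 0.0869 and 0.0881), against 0.21 and -0.32 without it. In Smad4KO cells Id3 and Smad1 were at -0.86 and -0.35 with it (adjusted p = 0.508 and 0.196), against -0.94 and -0.21 without it. With the endothelial list Smad5 was at -0.80 in EgfrKO cells (adjusted p = 0.234). In Klf5KO cells Id1 stayed lower in sign, at -0.73 with the immediate-early list (adjusted p = 0.0843) and -0.57 with the endothelial list (adjusted p = 0.510), whereas Smad6 was at 0.08 (adjusted p = 0.890) and -0.0066 (adjusted p = 0.998). The endothelial, leukocyte and immediate-early sums did not overlap between WT and any knockout. The covariate, though, was the mean log2(TPM + 1) of a list and not its sum. On that scale the 7 leukocyte genes had a median fold change of -0.12 in Smad4KO against WT cells, with 2 called lower. How far that covariate followed the genotype there is not shown by the sums. Where a list moved with the genotype, the list and the genotype cannot be told apart. The fibroblast sum in every Klf5KO library lay above that of all other genotypes, so that list and the Klf5KO label cannot be told apart either. The part of the other cell lists in the member results was not tested beyond these covariates.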

How the data were processed

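Gene-level TPM values were deposited by the authors for 12 libraries of sorted tumour cells, and Salmon and the mm10 build were used, per the submitters' processing notes. Neither the Salmon version nor the transcript annotation and strand setting was stated in the sources used here. All columns of deposited TPM have the same sum, read depth cannot be recovered, and no counting interval is given.

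Values were transformed to log2(TPM + 1). Genes at 1 TPM or more in 3 or more libraries (13662 of 24493) entered a limma 3.58.1 model in R 4.3.3 with 4 genotype means over 12 libraries, with eBayes and a trend, and 6 contrasts were adjusted separately by Benjamini-Hochberg. The functions were tested on simulated data. Genes named were the 10 members, the 3 targeted genes, the 3 nearest to each Id gene, and abundant cell markers. Named from each pathway list were the 4 most abundant and the 2 with the smallest adjusted p against WT. The low markers Epcam and Ncr1 were named outside these rules. Alternatives were another pseudocount, 2 other filters, 2 scalings, no trend, a fit of the genotypes compared, a replicate block, 4 marker lists as covariates and leaving out each library. The members and lists were chosen with earlier results of these data known.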

Additional observations from a re-analysis of the deposited data

How the results depend on the processing

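Over 966 alternative values of the 9 tested members, 814 kept their direction and side of the threshold, 89 lost a call, 27 gained one and 36 changed sign. A value that changed sign is counted only among the 36, also where it lost or gained a call, so the 89 and 27 leave those out. No tested member changed direction or side of the threshold with a pseudocount of 0.1, without a filter, with a filter of TPM 5 or without a trend in the spread. Without a filter Bambi entered the test and was called lower in Smad4KO against WT (-0.37, adjusted p = 0.0213) and against Klf5KO (-0.54, adjusted p = 0.0017). A fit of the 2 genotypes compared ended 2 member calls and brought 2. The stricter filter left out Id3, which has no value there. TPM holds no depth, so what depth limits is unknown, and Bambi, Id3 and other low genes are the least precise.

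Median-of-ratios scaling and quantile normalization changed the sign of Bmp4 in EgfrKO against WT (-0.069 and -0.099), Smad1 in Klf5KO against WT (-0.14 and -0.082) and Bmpr1a in Smad4KO against Klf5KO (0.16 and 0.13). The cause of this and of the changes below was not tested.

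With the endothelial list as a covariate the members called were 0 in EgfrKO and 0 in Klf5KO against WT, 0 in Smad4KO against EgfrKO and 1 in Smad4KO against Klf5KO. All genes called were then 39 in EgfrKO, 1 in Klf5KO, 647 in Smad4KO against EgfrKO, 678 in Smad4KO against Klf5KO and 3623 in EgfrKO against Klf5KO. Values that changed sign were Id2 (0.45) and Bmp4 (-0.31) in EgfrKO, and Id2 (0.31), Id3 (-1.44), Smad6 (-0.0066), Bmpr1a (-0.12), Bmpr2 (-0.20) and Smad5 (-0.014) in Klf5KO. So did Id2 in Smad4KO (0.14), Id2 (-0.31) and Id3 (0.60) in Smad4KO against EgfrKO, and Id2 (-0.17), Id3 (0.096) and Bmpr1a (0.34) in Smad4KO against Klf5KO.

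With the fibroblast list the members called were 1 in Klf5KO, 2 in Smad4KO against Klf5KO and 3 in EgfrKO against Klf5KO, and all genes called were 953 in Klf5KO, 2822 in Smad4KO against EgfrKO, 1874 in Smad4KO against Klf5KO and 2373 in EgfrKO against Klf5KO. Sign changes were Id2 (0.011) and Bmp4 (-0.013) in EgfrKO, Id2 in Smad4KO against EgfrKO (-0.093) and Bmpr1a in Smad4KO against Klf5KO (0.28). With the leukocyte list the members called were 2 in EgfrKO and 1 in Smad4KO against EgfrKO, where all genes called were 1996, and Bmpr2 (-0.20) and Smad5 (-0.055) changed sign.

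With the immediate-early list the members called were 1 in EgfrKO, 0 in Klf5KO and 2 in Smad4KO. All genes called were 1339, 244 and 1632 there, and 3883 in EgfrKO against Klf5KO. Id2 changed sign in EgfrKO (0.38), Klf5KO (0.39), Smad4KO (0.60, a gained call) and EgfrKO against Klf5KO (-0.0012), Bmp4 in EgfrKO (-0.10) and Bmpr2 in Smad4KO against EgfrKO (-0.00030).

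Leaving out each library in turn gave 2 to 4 members called in Smad4KO against EgfrKO. It moved Bmp4 in EgfrKO between -0.016 and 0.18, Id2 in Smad4KO between -0.028 and 0.028 and Bmpr2 in Smad4KO against EgfrKO between -0.017 and 0.20, none of which was called.

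Libraries with the same replicate number did not pair: their deviations from the group means correlated across genes at -0.15 to 0.12, and those of libraries with different numbers at -0.13 to 0.17. With the replicate number as a block the members called were 4, 7 and 6 in EgfrKO, Klf5KO and Smad4KO against WT, 3 in Smad4KO against EgfrKO, 8 in Smad4KO against Klf5KO and 7 in EgfrKO against Klf5KO, and all genes called were 5797, 9008, 6627, 4392, 8697 and 7536. Of the member calls it changed Smad6 in Smad4KO against EgfrKO (adjusted p = 0.0520).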
